A study of Mus musculus with 24 samples.

Results

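The 10 genes of the insulin-like growth factor (IGF) system described here were the ligands Igf1 and Igf2, the receptors Igf1r and Igf2r, and the binding proteins Igfbp2, Igfbp3, Igfbp4, Igfbp5, Igfbp6 and Igfbp7. They were picked by gene symbol from the 25229 genes of the deposited count table, and all 10 symbols were found there. The RNA came from ID8 cells, a mouse ovarian cancer line from the C57BL/6 strain, here lacking P53 (Trp53-/-). The 24 libraries formed 4 groups of 6, all treated for 6 days: DMSO (the solvent control), AU-15330 at 2.5 uM, cisplatin at 750 nM, and cisplatin at 750 nM together with AU-15330 at 2.5 uM. AU-15330 is a proteolysis-targeting chimera (PROTAC) that degrades SMARCA4 and its paralog SMARCA2, the motor subunits of the SWI/SNF chromatin remodelling complex. Cisplatin is a DNA-crosslinking chemotherapy, and the series title calls the treated cells senescent. The cisplatin dose is the one in the sample labels, and the study's methods give another dose for these cells. The series asks what SMARCA4 degradation does in senescent and in non-senescent cells.

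All groups shared the P53 knockout and a medium with serum and an insulin supplement, so every comparison below was made without P53 and with insulin present. No library of cells with intact P53 was analysed here, so the knockout could not be checked by comparison. AU-15330 acts on protein, so transcript counts do not check the degradation. Whether the line is 1 clone is not given in the sources used here. The labels number the replicates of each group from 1 to 6 and do not say that they were separate cultures, so p-values measure only the spread between these samples, which may be technical.

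IGF1 and IGF2 are secreted peptides related to insulin that promote growth and survival. Both act through IGF1R, a receptor tyrosine kinase that signals to the PI3K-AKT-mTOR and MAPK pathways. IGF2R has no kinase and carries IGF2 to the lysosome, where it is broken down. The binding proteins hold IGFs outside the cell and can limit or prolong their action. IGFBP6 prefers IGF2, and IGFBP7 binds IGFs weakly and is better known as a secreted protein of senescent cells. Several binding proteins belong to the secretory output of senescent cells.

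The libraries held 17592588 to 25260009 counts each. Of the 8 markers of ovarian surface epithelium and mesothelium examined, all 8 were detected well enough to test. Their summed level was 3531 to 5346 CPM (counts scaled to the size of the library) in DMSO, 4263 to 4948 in cisplatin, 1019 to 1151 in AU-15330 and 1224 to 1406 in the combination, so the list moved with AU-15330. The 5 leukocyte markers summed to 6.46 to 18.97 CPM in DMSO, 16.7 to 53.01 with AU-15330, 6.81 to 13.2 with cisplatin and 23.9 to 42.2 in the combination. The 4 endothelial markers summed to 2.87 to 4.28, 0.261 to 0.763, 8.51 to 12.8 and 0.483 to 1.20 CPM in the same order of groups. These sums came from Cd68 and Pecam1, and every other leukocyte, endothelial or adipocyte marker, the defining Ptprc and Cdh5 among them, had at most 9 counts in any library. Among the fibroblast markers, Col1a1, Dcn and Pdgfra were tested and Pdgfrb, Col1a2 and Thy1 had at most 7 counts in any library. The list summed to 227 to 641 CPM in DMSO, 111 to 173 in AU-15330, 365 to 449 in cisplatin and 194 to 292 in the combination. Its members did not move together: the median of Col1a1 was 359 CPM in DMSO and 64.2 with AU-15330, while that of Dcn was 35.3 and 65.7 CPM, with 163 CPM under cisplatin. The part of these marker changes in the results below was not tested. In bulk RNA, fewer cells of a type and less RNA per cell cannot be told apart.

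Of the 10 genes, 7 had enough counts to be tested and 3 did not. Levels are given as CPM after edgeR's TMM scaling. Calls are edgeR quasi-likelihood tests with p adjusted by Benjamini-Hochberg over all 12941 tested genes, and a gene is said to have changed only where the adjusted p was under 0.05. A log2 fold change of 1 is a doubling.

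The starts of Igfbp4, Igf2 and Igfbp7 are shown first, since SWI/SNF acts on chromatin at promoters and enhancers. Igfbp4 (chr11:99041244-99054392, plus strand) had the largest fall of the 7 genes under AU-15330. Igf2 (chr7:142650766-142666816, minus strand) had the only rise, in a direction fixed by the filter on low counts, as described below. Igfbp7 (chr5:77349240-77408041, minus strand) changed less and remained abundant in every group. Each run below is the 250 bases before a RefSeq transcript start in build GRCm38.p6, written 5′ to 3′ on the gene's strand. Capitals mark 4 short motifs on either strand: the TATA box TATAAA, the GC box GGGCGG that SP1-type factors bind, the TEAD site GGAATG, and the AP-1 site TGANTCA. Igfbp4 and Igfbp7 have 1 window each and Igf2 has 4, at separate starts that counts per gene cannot tell apart.
Igfbp4 (chr11:99040994-99041243): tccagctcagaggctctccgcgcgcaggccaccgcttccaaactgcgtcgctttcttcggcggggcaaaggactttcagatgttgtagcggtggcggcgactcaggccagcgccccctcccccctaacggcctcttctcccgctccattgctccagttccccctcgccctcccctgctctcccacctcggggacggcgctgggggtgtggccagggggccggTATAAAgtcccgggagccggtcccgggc
Igfbp7 (chr5:77408046-77408295): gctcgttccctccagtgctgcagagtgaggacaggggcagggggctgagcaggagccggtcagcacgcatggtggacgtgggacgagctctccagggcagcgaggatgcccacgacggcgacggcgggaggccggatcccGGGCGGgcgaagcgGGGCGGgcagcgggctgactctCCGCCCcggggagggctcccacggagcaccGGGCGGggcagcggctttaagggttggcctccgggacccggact
Igf2 (chr7:142657497-142657746): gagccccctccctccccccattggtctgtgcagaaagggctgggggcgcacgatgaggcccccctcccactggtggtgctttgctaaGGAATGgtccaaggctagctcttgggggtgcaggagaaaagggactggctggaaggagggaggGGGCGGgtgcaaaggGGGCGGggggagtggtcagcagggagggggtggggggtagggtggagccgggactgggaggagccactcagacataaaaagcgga
Igf2 (chr7:142658805-142659054): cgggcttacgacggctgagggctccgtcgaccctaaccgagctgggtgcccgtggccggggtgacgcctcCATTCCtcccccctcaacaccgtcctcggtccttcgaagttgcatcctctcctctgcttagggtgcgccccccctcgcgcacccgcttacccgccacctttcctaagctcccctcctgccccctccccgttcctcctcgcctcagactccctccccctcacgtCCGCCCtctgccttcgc
Igf2 (chr7:142661272-142661521): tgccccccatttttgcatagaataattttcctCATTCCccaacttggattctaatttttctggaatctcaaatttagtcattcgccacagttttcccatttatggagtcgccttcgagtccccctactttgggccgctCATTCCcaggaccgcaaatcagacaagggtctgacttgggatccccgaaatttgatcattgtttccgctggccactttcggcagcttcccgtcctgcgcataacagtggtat
Igf2 (chr7:142666817-142667066): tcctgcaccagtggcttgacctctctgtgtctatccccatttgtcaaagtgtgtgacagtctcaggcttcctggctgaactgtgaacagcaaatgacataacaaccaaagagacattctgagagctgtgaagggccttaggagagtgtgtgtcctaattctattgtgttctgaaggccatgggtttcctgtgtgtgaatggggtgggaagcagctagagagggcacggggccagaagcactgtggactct

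The Igfbp4 window held a TATA box that began 28 bases before the start, and none of the other 3 motifs. The Igfbp7 window held 4 GC boxes and no TATA box. Of the 4 Igf2 windows, 3 held a TEAD site, 2 of them also held a GC box, and the fourth held no motif. Over all 14 windows of the 10 genes, 2 held a TATA box, 6 a GC box, 4 a TEAD site and 2 an AP-1 site. Among 32851 windows of the same length genome-wide, the shares were 12.4% for the TATA box, 32.7% for the GC box, 12.6% for the TEAD site and 6.75% for the AP-1 site. These are matches of letters, and no binding was measured.

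AU-15330 alone lowered 6 of the 7 tested genes: Igf1, Igf1r, Igf2r, Igfbp4, Igfbp6 and Igfbp7. The seventh, Igf2, was higher, but it passed the filter on low counts only through the groups given AU-15330, so it had to differ and no p is given for it here. Changes were common in this comparison, with 73.4% of all tested genes called, 36.2% higher and 37.2% lower. The median log2 fold change of the 7 genes was −1.22, against −0.00301 over all tested genes. Of the 6 genes that fell, 5 (all but Igf1) had CPM ranges that did not overlap between the groups, as did 49.9% of tested genes. Comparisons with DMSO share the same 6 control libraries.

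**Figure D1:**
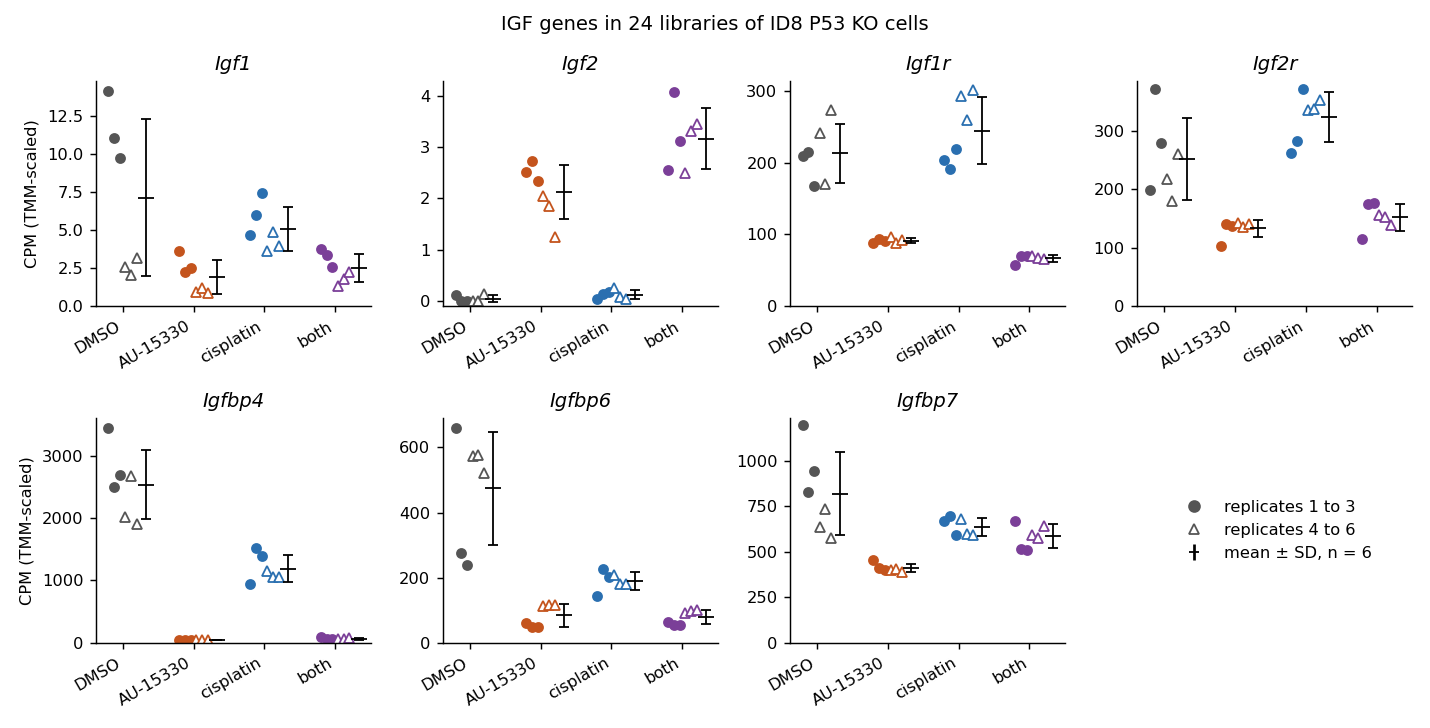
TMM-scaled CPM of the 7 tested IGF genes in each of the 24 libraries, by treatment, with the mean ± SD of 6 libraries beside each group. Filled circles are replicates 1 to 3 and open triangles replicates 4 to 6. Igfbp4 lay between 39.8 and 51.8 CPM with AU-15330 and between 1910 and 3440 with DMSO, and Igf2 was at or near 0 without AU-15330.

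Among the ligands, Igf1 (chr10:87858265-87937042, plus strand) was low throughout. In DMSO its lowest, median and highest levels were 2.05, 6.45 and 14.1 CPM, and with AU-15330 they were 0.887, 1.73 and 3.65 CPM. The ranges overlapped, and the DMSO libraries split by replicate number, with 9.75 to 14.1 CPM in replicates 1 to 3 and 2.05 to 3.16 CPM in replicates 4 to 6. Igf1 fell by 1.88 on the log2 scale (SE 0.42, n = 6 per group, edgeR adjusted p = 0.000287), and by 2.05 within replicates 1 to 3 and 1.39 within replicates 4 to 6.

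Igf2 was almost silent without AU-15330. The 6 DMSO libraries held 5 Igf2 counts in all, with 4 libraries at 0 and at most 3 counts in any. The 6 AU-15330 libraries held 280, from 24 to 62 in each, or 1.25, 2.20 and 2.73 CPM as the lowest, median and highest. The ratio of the scaled sums was 51.6, and no AU-15330 library overlapped with a control. Both describe Igf2 without testing it, since it passed the filter only through its high groups. Its level stayed low even so: per kb of exon, Igf2 ranked 11069 of 12697 genes with AU-15330 and 12626 with DMSO.

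The receptors fell together under AU-15330. Igf1r (chr7:67952827-68233668, plus strand) had lowest, median and highest levels of 167, 213 and 274 CPM in DMSO and 87.5, 91.4 and 96.9 CPM with AU-15330. It fell by 1.22 on the log2 scale (SE 0.11, edgeR adjusted p = 3.41e-10). The AU-15330 libraries were tightly grouped and all lay below the lowest control. Igf2r (chr17:12682406-12769664, minus strand) went from 180, 239 and 372 CPM in DMSO to 103, 139 and 142 CPM, and fell by 0.92 (SE 0.14, edgeR adjusted p = 1.84e-06). Again no AU-15330 library reached the lowest control. The antisense RNA Airn overlaps Igf2r on the other strand, with 2867 counts over all libraries against 113084 for Igf2r.

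Igfbp4 and Igfbp6 had the largest falls of the tested IGF genes, and Igfbp7 fell less than Igf1 and Igf1r. Igfbp4, one of the most abundant mRNAs of these cells, had lowest, median and highest levels of 1910, 2588 and 3440 CPM in DMSO and 39.8, 46.3 and 51.8 CPM with AU-15330. It was 55.2-fold lower, a log2 fold change of −5.79 (95% interval −6.16 to −5.42, edgeR adjusted p = 9.68e-20). Its rank per kb went from 29 of 12697 genes to 4924. Igfbp6 (chr15:102144362-102149511, plus strand) went from 239, 547 and 660.5 CPM to 47.3, 87.9 and 116 CPM, and fell by 2.50 (SE 0.27, edgeR adjusted p = 4.20e-09). The highest AU-15330 library remained below the lowest control.

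Igfbp6 levels with AU-15330 also split by replicate number, at 47.3 to 61.5 CPM in replicates 1 to 3 and 114 to 116 CPM in replicates 4 to 6. In the combination these sets lay at 55.8 to 65.1 and 92.8 to 101 CPM. In DMSO they lay at 239 to 660.5 and 521 to 576 CPM, which overlap. Igfbp7, a secreted protein tied to senescence, was the least changed of the 3 tested binding protein genes. It went from 574, 781 and 1195 CPM in DMSO to 386, 404 and 455 CPM, and fell by 1.00 on the log2 scale (SE 0.12, edgeR adjusted p = 5.81e-08). Its rank per kb was 20 with DMSO and 44 with AU-15330, so it stayed among the most abundant transcripts. Polr2b overlaps Igfbp7 on the opposite strand, with 81063 counts against 314884.

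The makeup of binding protein transcripts differed between treatments. Summed per kb over the 6 genes, they stood at 1678 ± 355 CPM per kb in DMSO and 425 ± 27.7 with AU-15330 (mean ± SD, n = 6). Igfbp4 made up 34.3% ± 3.17 of that sum in DMSO and 2.47% ± 0.419 with AU-15330. The Igfbp7 share was 40.1% ± 6.12 in DMSO and 80.0% ± 6.12 with AU-15330. With cisplatin the sum was 965 ± 93.2 CPM per kb, and the shares of Igfbp4, Igfbp6 and Igfbp7 were 27.7%, 17.6% and 54.7%. In the combination the sum was 569 ± 68.7 CPM per kb, of which 85.1% was Igfbp7.

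**Figure D2:**
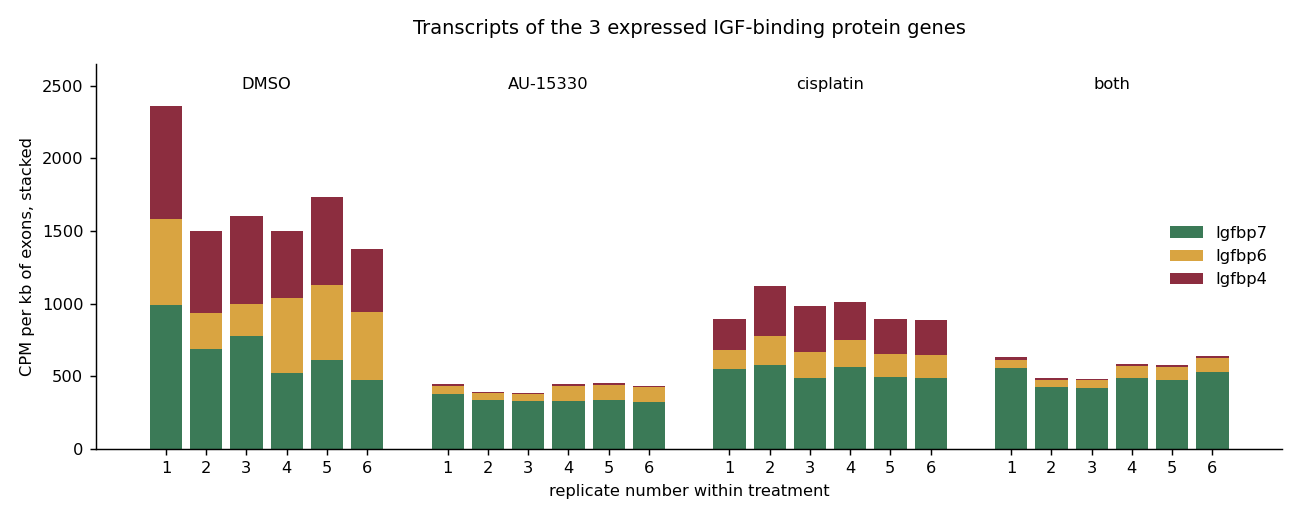
Stacked levels of Igfbp7, Igfbp6 and Igfbp4 in CPM per kb of exon for each library, by treatment and replicate number. The Igfbp4 segment averages 34.3% of all binding protein transcripts in DMSO and 2.47% with AU-15330.

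Igfbp2, Igfbp3 and Igfbp5 were barely detected and were not tested. Igfbp5 (chr1:72857932-72874884, minus strand) had 85 counts over all libraries and at most 11 in any. Igfbp3 (chr11:7206086-7213923, minus strand) had 3 counts in all. Igfbp2 (chr1:72824503-72852474, plus strand) had 36 counts in all: 0 in DMSO, 8 with AU-15330, 15 with cisplatin and 13 with the combination. No library of any treatment had more than 5 Igfbp2 counts. Small differences of Igfbp3 or Igfbp5 were not detectable at this depth.

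Cisplatin alone changed 4 of the 7 genes: 1 rose, Igf2r, and 3 fell, Igfbp4, Igfbp6 and Igfbp7, while 51.7% of all tested genes were called, 26.0% higher and 25.7% lower. The median of the 7 was −0.36 on the log2 scale, against −0.00413 over all tested genes.

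Igfbp4 had lowest, median and highest levels of 947, 1106 and 1518 CPM with cisplatin. Igfbp4 and Igfbp6 lay below every control, and ranges did not overlap for 3100 of the 12941 tested genes. Igfbp4 fell by 1.10 on the log2 scale (SE 0.15, edgeR adjusted p = 8.31e-07). Igfbp6, at 143, 190 and 226 CPM, fell by 1.32 (SE 0.25, edgeR adjusted p = 0.000104). Its separation was narrow, since the highest cisplatin library had 226 CPM and the lowest control 239 CPM. The DMSO libraries of replicates 2 and 3 had 277 and 239 CPM, below the other controls. Within replicates 1 to 3 the log2 fold change was −1.05 (edgeR adjusted p = 0.0166). Igfbp7, at 589, 630 and 697 CPM, fell by 0.36 (SE 0.12, edgeR adjusted p = 0.0144). That fall was not seen in replicates 4 to 6 alone, where the log2 fold change was −0.08 (edgeR adjusted p = 0.500), and without replicate 1 it was −0.26 (edgeR adjusted p = 0.0520).

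Among the receptors, Igf2r stood at 262, 336 and 371 CPM with cisplatin and rose by 0.37 on the log2 scale (SE 0.14, edgeR adjusted p = 0.0291). Its range overlapped that of DMSO, and within replicates 1 to 3 the log2 fold change was 0.10 (edgeR adjusted p = 0.768). Igf1r, at 192, 240 and 302 CPM, had a log2 fold change of 0.20 (95% interval −0.03 to 0.43, edgeR adjusted p = 0.137), which did not pass the test. The difference was called in replicates 4 to 6 alone, at 0.31 (edgeR adjusted p = 0.0368).

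For the ligands the replicate sets disagreed. Igf1 stood at 3.59, 4.75 and 7.41 CPM with cisplatin, inside the DMSO range, and its log2 fold change of −0.48 did not pass (95% interval −1.28 to 0.32, edgeR adjusted p = 0.311). In replicates 1 to 3 it was −0.95 (edgeR adjusted p = 0.00622) and in replicates 4 to 6 it was 0.64 (edgeR adjusted p = 0.0156), each past the threshold in opposite directions. The labels give no meaning to these sets, and their part in the result was not tested beyond these fits. Igf2 had 1 to 6 counts in each cisplatin library and 17 in all, against 5 in DMSO, and did not pass (edgeR adjusted p = 0.0919). Without replicate 1, whose DMSO library held 2 of the 5 control counts, Igf2 passed (edgeR adjusted p = 0.0388).

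**Figure D3:**
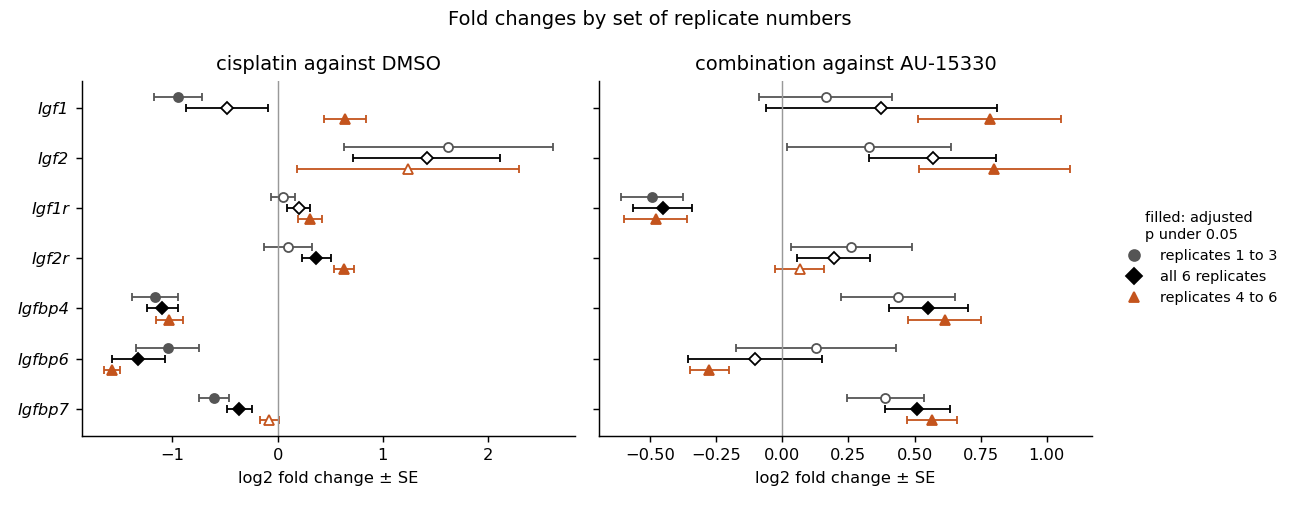
Log2 fold change ± SE of the 7 genes for cisplatin against DMSO (left) and the combination against AU-15330 (right), fitted on replicates 1 to 3, all 6 replicates and replicates 4 to 6. Filled symbols have an adjusted p under 0.05. Igf1 under cisplatin is −0.95 in replicates 1 to 3 and 0.64 in replicates 4 to 6.

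When AU-15330 was added to cisplatin, 5 of the 7 genes fell relative to cisplatin alone: Igf1, Igf1r, Igf2r, Igfbp4 and Igfbp6. Igf2 was higher, again with its call fixed by the filter, and Igfbp7 did not pass. Of all tested genes, 68.1% were called, 35.4% higher and 32.7% lower. The median of the 7 was −1.09 on the log2 scale, against 0.0389 over all tested genes. Ranges did not overlap for 4 of the 5 genes that fell (all but Igf1), and for 50.2% of tested genes.

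Igfbp4 stood at 55.1, 58.8 and 96.4 CPM in the combination and was 17.6-fold lower than with cisplatin (log2 fold change −4.14, SE 0.17, edgeR adjusted p = 2.45e-17). Igfbp6 stood at 55.8, 79.0 and 102 CPM and fell by 1.28 on the log2 scale (SE 0.26, edgeR adjusted p = 8.89e-05). Both were below every cisplatin library. Igfbp7, at 508, 583 and 671 CPM, did not pass against cisplatin: its log2 fold change was −0.12, with a 95% interval from −0.37 to 0.13 (edgeR adjusted p = 0.380). The interval leaves out a fall of the size seen without cisplatin.

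Igf1r had its lowest level of any group in the combination, at 57.3, 68.2 and 70.4 CPM. It fell by 1.88 on the log2 scale against cisplatin (SE 0.12, edgeR adjusted p = 1.20e-13), with no overlap. Igf2r, at 116, 154 and 177 CPM, fell by 1.09 (SE 0.14, edgeR adjusted p = 1.48e-07), also with no overlap. Of the ligands, Igf2 had 415 counts in the combination against 17 with cisplatin, from 55 to 93 in each library. The scaled sums had a ratio of 26.0, again a description and no test. Igf1 stood at 1.32, 2.38 and 3.72 CPM and fell by 1.02 on the log2 scale (SE 0.41, edgeR adjusted p = 0.0306), with overlapping ranges.

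Set against AU-15330 alone, the combination changed 3 of the 7 genes, 2 higher and 1 lower, while 41.7% of all tested genes were called, 22.2% higher and 19.5% lower. Igfbp4 rose by 0.55 on the log2 scale (SE 0.15, edgeR adjusted p = 0.00437) and Igfbp7 by 0.51 (SE 0.12, edgeR adjusted p = 0.00148), whereas Igf1r fell by 0.45 (SE 0.11, edgeR adjusted p = 0.00220). These 3 genes, and no other of the 7, had ranges that did not overlap, against 29.6% of tested genes. In replicates 1 to 3 alone, Igfbp4 was at 0.44 (edgeR adjusted p = 0.173) and Igfbp7 at 0.39 (edgeR adjusted p = 0.0746), and only Igf1r passed. Igf2 was at 0.57 (edgeR adjusted p = 0.0602). It passed with DESeq2 (DESeq2 adjusted p = 0.0244), without replicate 1 (edgeR adjusted p = 0.0420) and with replicate number as a block (edgeR adjusted p = 0.0475). It did not pass with DESeq2 size factors (edgeR adjusted p = 0.0661) or total counts (edgeR adjusted p = 0.0575). Nor did it pass with no filter (edgeR adjusted p = 0.125) or in replicates 1 to 3 alone (edgeR adjusted p = 0.495). The others did not pass with all 6 replicates: Igf2r at 0.19 (95% interval −0.09 to 0.48), Igf1 at 0.37 (95% interval −0.53 to 1.28) and Igfbp6 at −0.10 (95% interval −0.63 to 0.42). In replicates 4 to 6 alone, Igf1 (0.78, edgeR adjusted p = 0.0313), Igf2 (0.80, edgeR adjusted p = 0.0351) and Igfbp6 (−0.28, edgeR adjusted p = 0.00743) passed.

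Relative to DMSO, the combination lowered the same 6 genes as AU-15330 alone, and Igf2 was again higher. The control libraries were the same, with 73.3% of all tested genes called, 36.8% higher and 36.5% lower. Log2 fold changes ran from −5.23 for Igfbp4 and −2.60 for Igfbp6, through −1.68 for Igf1r and −1.50 for Igf1, to −0.72 for Igf2r and −0.49 for Igfbp7. Of the 6 genes that fell, 4 (Igf1r, Igf2r, Igfbp4 and Igfbp6) had ranges that did not overlap with DMSO, as was true of 49.5% of tested genes. Igfbp7 did not pass in replicates 4 to 6 alone (−0.15, edgeR adjusted p = 0.163), and the Igf1 fold change was −1.89 in replicates 1 to 3 and −0.60 in replicates 4 to 6.

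The design also allowed a test of whether the effect of AU-15330 differed with and without cisplatin, as an interaction in the same fit. It passed for 4 of the 7 genes, 3 above 0 and 1 below, against 33.7% of all tested genes, 17.9% above 0 and 15.8% below. The fall of Igf1r was deeper with cisplatin, by 0.65 on the log2 scale (SE 0.16, edgeR adjusted p = 0.00245). For the binding proteins the fall was shallower with cisplatin, by 1.65 for Igfbp4 (SE 0.21, edgeR adjusted p = 1.33e-06), 1.22 for Igfbp6 (SE 0.36, edgeR adjusted p = 0.0100) and 0.87 for Igfbp7 (SE 0.17, edgeR adjusted p = 0.000343). All 3 of these genes also fell with cisplatin alone. The Igfbp6 difference was 0.98 without replicate 1 (edgeR adjusted p = 0.0510) and 1.17 in replicates 1 to 3 alone (edgeR adjusted p = 0.0878).

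The interaction did not pass for Igf2r (−0.17, 95% interval −0.57 to 0.23), Igf1 (0.86, 95% interval −0.35 to 2.06) or Igf2 (−0.85, 95% interval −2.32 to 0.62). The Igf1 interval reaches far above 0 and the Igf2 interval far below it, so large differences of those signs were not excluded. Within replicates 1 to 3, the Igf1 interaction was 1.11 (edgeR adjusted p = 0.0468). Within replicates 4 to 6, the Igf2r interaction was −0.57 (edgeR adjusted p = 0.00393).

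**Figure D4:**
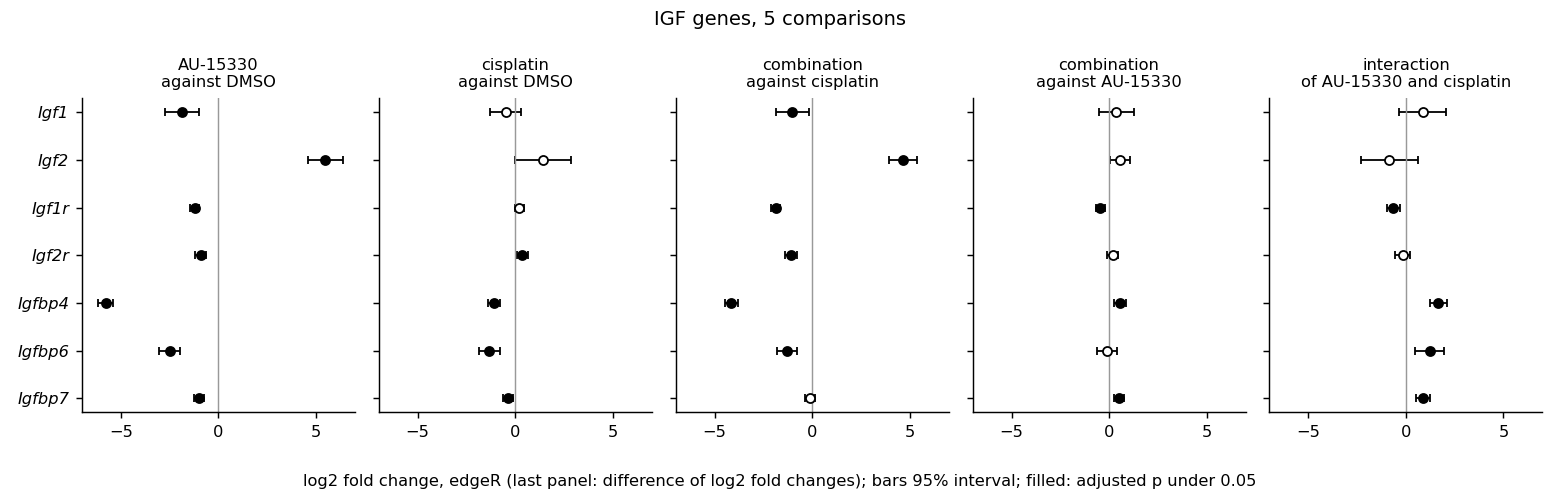
Log2 fold change with 95% interval (edgeR, n = 6 per group) of the 7 tested genes in 4 comparisons, and in the last panel the difference of the AU-15330 effect with and without cisplatin. Filled points have an adjusted p under 0.05. Igfbp4 lies at −5.79 and −4.14 against DMSO and against cisplatin where AU-15330 was added, and the Igf2 points there were fixed in direction by the filter on low counts.

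The order of the 4 treatments by level was not the same for all genes. Igf1r was highest with cisplatin, then DMSO, AU-15330 and the combination, and only the first neighbours, cisplatin and DMSO, did not differ beyond their spread. Igf2r had the order cisplatin, DMSO, combination, AU-15330, and the last 2 did not differ beyond their spread. Igfbp4 was in the order DMSO, cisplatin, combination, AU-15330, each differing from the next. For Igfbp7 the order was the same, but cisplatin and the combination did not differ beyond their spread. Igfbp6 went from DMSO through cisplatin to AU-15330 and the combination, the last 2 not being told apart. Igf2 was highest in the combination, followed by AU-15330, cisplatin and DMSO. Neither the step between the combination and AU-15330 nor that between cisplatin and DMSO passed in the edgeR fit of all libraries. The first passed under some alternatives and not under others, as given above, and the second passed without replicate 1. Igf1 went from DMSO through cisplatin and the combination to AU-15330, and of these neighbours only cisplatin and the combination differed beyond their spread. AU-15330 alone was not tested against cisplatin alone.

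The other genes of the pathway were read from 4 lists, 49 genes in all, of which 34 were tested. With AU-15330, 13 of them rose and 12 fell, and with cisplatin 6 rose and 6 fell. The falls with AU-15330 include H19 and Stc2, whose calls there were fixed by the filter on low counts, since both were low in every group given AU-15330. The rises with cisplatin include Pappa2, which was low in DMSO and passed the filter mainly through the groups given cisplatin. Its rise with AU-15330 rests on few reads. The numbers of genes called lie near or below the shares over all tested genes, 73.4% called with AU-15330 and 51.7% with cisplatin. Among 24 tested genes of receptor signalling, 10 rose and 6 fell with AU-15330 (median log2 fold change 0.21, against −0.00301 over all tested genes), and 3 rose and 3 fell with cisplatin (median 0.08).

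The genes around mTOR did not share a direction. Rps6kb1, which encodes the S6 kinase p70, went from 71.3 to 93.2 CPM in DMSO to 330 to 461 CPM with AU-15330, a rise of 2.22 on the log2 scale (SE 0.08, edgeR adjusted p = 4.42e-18). Mtor, the kinase that activates it, went from 156 to 241 CPM to 80.1 to 93.9 CPM and fell by 1.14 (SE 0.11, edgeR adjusted p = 1.19e-09). Tsc1, a subunit of the complex that restrains mTOR, rose by 1.04 (SE 0.13, edgeR adjusted p = 1.39e-07). Irs2, an adaptor that links IGF1R and the insulin receptor to PI3K, fell by 1.10 with AU-15330 (SE 0.13, edgeR adjusted p = 2.92e-08) and rose by 0.63 with cisplatin (SE 0.13, edgeR adjusted p = 0.000191). For each of these genes the AU-15330 libraries lay outside the DMSO range, as was true of 49.9% of all tested genes. The genes were named for the size of their change, so this separation is no further test.

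Foxo4, a transcription factor that AKT holds out of the nucleus, was at −0.02 with AU-15330 (edgeR adjusted p = 0.896) and fell by 0.63 with cisplatin (SE 0.14, edgeR adjusted p = 0.000567). Its interaction was 1.11 (SE 0.20, edgeR adjusted p = 0.000122), and the combination stood at 57.4 to 85.3 CPM against at most 37.4 CPM with cisplatin. Of 8 other family members (insulins, further binding proteins and related receptors), 2 were tested, Insr and M6pr, and 1 rose with AU-15330, where 36.2% of all tested genes did: M6pr, the smaller mannose 6-phosphate receptor, by 0.23 (SE 0.05, edgeR adjusted p = 0.000273).

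Proteases that cut binding proteins, with the inhibitors of such proteases, gave 4 tested genes of 8, of which 2 were called higher and 2 lower with AU-15330, where 36.2% and 37.2% of all tested genes were. The call of Stc2, a protease inhibitor gene, was fixed by the filter, since Stc2 had at most 10 counts in any library with AU-15330. Pappa2, a protease gene, was low in both groups compared, with 4 counts in all in DMSO and 24 with AU-15330. It had 61 with cisplatin and 58 in the combination. Htra1, a secreted protease that can cleave binding proteins, went from 255 to 462 CPM in DMSO to 116 to 153 CPM and fell by 1.38 (SE 0.14, edgeR adjusted p = 1.80e-09). With cisplatin it fell by 0.34 (SE 0.14, edgeR adjusted p = 0.0399), and its interaction was 1.01 (SE 0.19, edgeR adjusted p = 0.000276).

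Genes that bind IGF2 mRNA or neighbour the imprinted members gave 4 tested genes of 7, of which H19 passed the filter only through the groups without AU-15330, so it had to differ. The other 3 fell with AU-15330, where 37.2% of all tested genes were called lower. Igf2bp1 and Igf2bp2 encode RNA-binding proteins of the IGF2 mRNA. Igf2bp1 had a log2 fold change of −1.44 (SE 0.12, edgeR adjusted p = 3.58e-11) and Igf2bp2 of −1.41 (SE 0.13, edgeR adjusted p = 4.48e-10). Airn, the imprinted antisense RNA of the Igf2r locus, fell by 1.78 (SE 0.14, edgeR adjusted p = 2.19e-11), in the same direction as Igf2r. Where counting ignored strand, reads of Airn and Igf2r could not be told apart.

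H19, the imprinted non-coding RNA 72.6 kb from Igf2, was singled out after its values were seen, and its counts are a description with no test. It had 132 to 526 counts in each DMSO library, 1 to 13 with AU-15330, 37 to 72 with cisplatin and 3 to 7 in the combination.

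**Figure D5:**
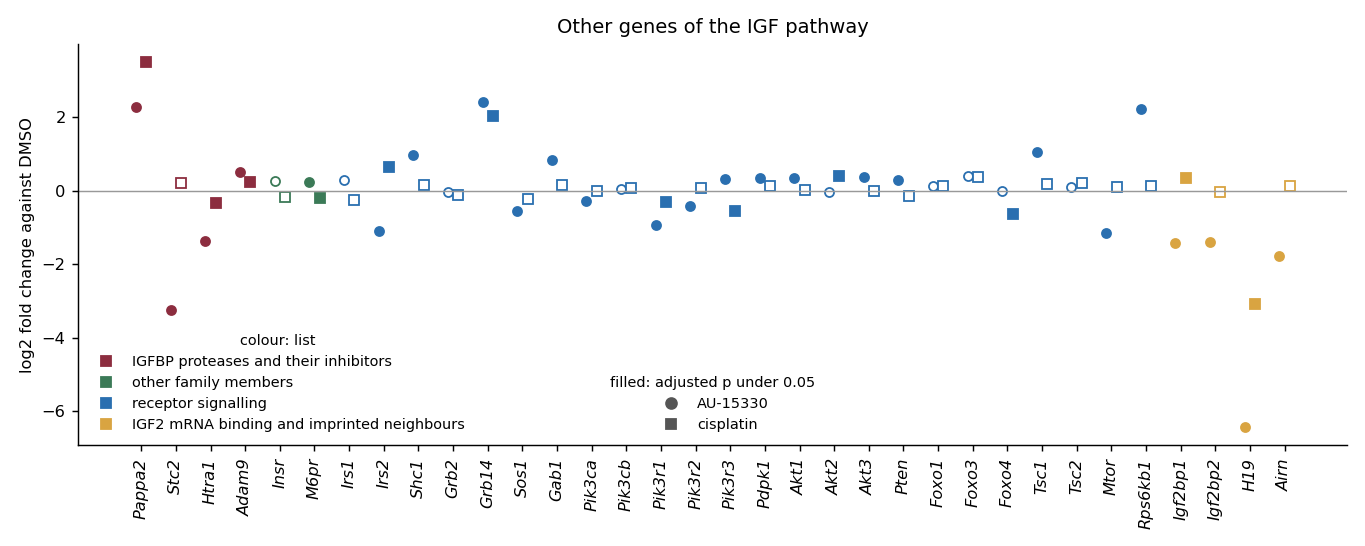
Log2 fold change against DMSO of the 34 tested genes from the 4 pathway lists, circles for AU-15330 and squares for cisplatin, coloured by list and filled where the adjusted p was under 0.05. With AU-15330, 13 genes lie above 0 and 12 below it with filled circles.

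The genes whose levels tracked each member most closely over the 24 libraries were found among 9566 expressed genes by Pearson's r of log2 CPM, as a description that mostly follows the 4 treatments. For Igfbp4 they were Mmp11 (0.997) and Parp1 (0.995), for Igf1r Tet3 (0.984) and Zfp462 (0.983), and for Igf2 Bbs7 (0.978). Igf2r was closest to Asap1 (0.970) and Abhd2 (0.963), Igfbp6 to Zfyve21 (0.963) and Palm (0.960), Igfbp7 to Rnf126 (0.940) and Fdps (0.928), and Igf1 to Hspb6 (0.889) and Pspc1 (0.886). Within single treatments (n = 6) the likeness was weaker or reversed for some: the r of Igfbp4 with Parp1 ran from −0.731 to 0.781, whereas that of Igfbp6 with Palm ran from 0.842 to 0.960.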

How the data were processed

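Poly(A) RNA was sequenced single-end from directional libraries. The submitters' processing notes name STAR 2.7.1a, DESeq2 1.36.0 and the build mm10. The deposited table held raw counts per gene for 2 lanes of each of 24 libraries; the counting tool, its annotation and its use of strand are not given in the sources used here. The 2 lanes were summed. The table's columns were matched to the labels by treatment and replicate number, and no column was left unused. Members and gene lists were chosen with earlier results of these data known. Genes were filtered with filterByExpr, which kept 12941 of 25229, scaled by TMM and fitted as 4 group means with edgeR 4.0.16 (R 4.3.3), with 20 residual degrees of freedom. Quasi-likelihood F tests were two-sided and adjusted by Benjamini-Hochberg over all tested genes at 0.05. The procedure was tested on simulated data. Levels per kb used summed exon lengths of the GENCODE annotation of GRCm38, which also gave gene positions; promoter windows came from RefSeq (GRCm38.p6). Likeness was Pearson's r with genes of mean log2 CPM of at least 3, the closest 2 being named; 1 of them is not reported here. All 10 members were named. Pathway genes were named if their mean log2 CPM was at least 2 and they changed by at least 1 on the log2 scale. That change needed an adjusted p under 0.05 in a single-agent comparison or the interaction. M6pr, Insr, H19, Stc2 and Pappa2 lie outside that rule. Alternatives were a replicate block, DESeq2 size factors, total counts, no filter, DESeq2 1.42.0, leaving out replicate 1, and replicates 1 to 3 or 4 to 6 alone.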

Additional observations from a re-analysis of the deposited data

Results flagged for a closer look

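In 3 of 28 groups of 6 libraries, 1 library lay apart from the other 5 by Dixon's test at 95%, whose ratio is the gap to the nearest library over the whole range. Chance gives about 1.4 such groups. All 3 were replicate 1 of a treatment with AU-15330. Igf1r in replicate 1 of the combination had 57.3 CPM against 66.0 to 70.4 in the other libraries (ratio 0.668). Igf2r in replicate 1 of AU-15330 had 103 CPM against 136 to 142 (ratio 0.826), and Igfbp7 in the same library had 455 CPM against 386 to 410 (ratio 0.653). Without replicate 1, the called directions of Igf2r and Igfbp7 in AU-15330 against DMSO were kept, at log2 fold changes of −0.93 and −0.91. Igf1r in the combination stayed called lower, at −1.92 against cisplatin and −0.46 against AU-15330.

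The effect of AU-15330 differed with and without cisplatin for 4 genes by the interaction test. For Igf1r it was −1.22 without and −1.88 with cisplatin on the log2 scale, a difference of −0.65. For Igfbp4 it was −5.79 and −4.14, a difference of 1.65. For Igfbp6 it was −2.50 and −1.28, a difference of 1.22, and Igfbp7 fell by 1.00 without cisplatin and by 0.12 with it, a difference of 0.87.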

How the results depend on the processing

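Each of the 7 tested genes was refitted in 6 comparisons under 8 alternatives. Of 336 values, 313 kept their direction and their side of the threshold. With the direction kept, 8 lost the call and 12 gained one. The other 3 changed sign, and Igf1 among them also gained a call. The values kept include those of Igf2 for AU-15330 against DMSO and for the combination against cisplatin and against DMSO. The filter on low counts fixed these Igf2 calls, so their stability is no test. The sign changes were Igf1 for cisplatin against DMSO in replicates 4 to 6 (0.64), Igfbp6 for the combination against AU-15330 in replicates 1 to 3 (0.13) and the Igf2r interaction in replicates 1 to 3 (0.16); the cause was not tested. For the combination against AU-15330, the number of genes called was 3 of 7 with all replicates, 1 with replicates 1 to 3 and 6 with replicates 4 to 6; over all genes the calls were 5394 of 12941, 2817 of 13008 and 5454 of 12985, and the cause was not tested. With the replicate block, that comparison called 4 genes, Igf2 being added at 0.58 (edgeR adjusted p = 0.0475), and no other call changed. Replicate numbers were not taken as pairs: deviations from group means of same-numbered libraries correlated at 0.145 on average, from −0.133 to 0.483, with 23 of 36 above 0.1, and 10 of 24 libraries correlated best with their own number. DESeq2 also called Igf2 there, at 0.55 (DESeq2 adjusted p = 0.0244), as did edgeR without replicate 1, at 0.64 (edgeR adjusted p = 0.0420). Scaling by total counts moved the median log2 fold change of all tested genes to 0.126 for AU-15330, 0.104 for the combination against cisplatin and 0.139 for the combination against DMSO; it called Igf1r for cisplatin, at 0.27 (edgeR adjusted p = 0.0425), and changed no direction. With no filter on low counts, Igfbp2 was called against DMSO with AU-15330 (edgeR adjusted p = 0.0192), cisplatin (edgeR adjusted p = 0.00532) and the combination (edgeR adjusted p = 0.00459), on at most 5 counts in a library. Depth limits Igf2 in cells without AU-15330 and the 3 untested genes.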
